A study of Sorghum bicolor with 14 samples.

Results

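The 150 loci described here had higher RNA levels at each step as soil dried around potted sweet sorghum plants. Levels were measured by RNA sequencing of total RNA from the middle internode of the stem in ICSV12012, a sweet variety of Sorghum bicolor. Plants of the 3 drought groups grew in pots with 1 plant each. Water was withheld from the flag leaf stage, and internodes were taken at booting once the soil held about 13% (D1), 7% (D2) or 2% (D3) moisture. Plants of the 4 development groups grew in a watered soil bed with nitrogen fertilizer and gave samples of floral initiation, of booting, of the milky stage and of soft dough. All groups share the variety and the tissue, and D1 is the least dry drought group rather than a watered control. Each of the 7 groups had 2 libraries, but the authors deposited 1 value per locus and group, in FPKM (fragment counts divided by transcript length and by library size). Nothing in the labels says whether the libraries came from separate plants, and there is no spread between libraries to set a difference against, so no value below carries an error or a test, and the sequencing depth is unknown.

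When roots lose water, plants make the hormone abscisic acid, which closes stomata and switches on genes in many tissues. Well known products of such genes are dehydrins and other late embryogenesis abundant proteins, enzymes for compatible solutes, chaperones and enzymes that remove reactive oxygen. The sorghum internode is also a store, which takes up sucrose around and after flowering, so its RNA changes with age in watered plants too. The files pair loci with sorghum gene identifiers and with no product names, while 0 of these identifiers occur in the RefSeq gene table at hand (NCBIv3). The members are therefore given by identifier, without a role, and the tissue label was not checked against marker genes.

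Members were chosen on the drought values, as differences of log2(FPKM + 1), where 1 unit is 2-fold with the offset. Step 1 is D2 minus D1 and step 2 is D3 minus D2. Of 20898 loci with a single gene name and values above 0 in D1, D2 and D3, 262 (1.25%) had both steps at 0.5 or more, and the 150 with the largest sum of the steps were kept. What follows on D1, D2 and D3 is thus a description of the choice. The last member, Sobic.002G142300, had 1.73, 4.75 and 8.47 FPKM in D1, D2 and D3, a sum of 1.796. The first locus left out, Sobic.009G161700, had 54.5, 126 and 192 FPKM and a sum of 1.794, so the edge of the choice runs through loci of very different abundance.

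The members ranged from near silence to some of the more abundant loci of the internode. Their median was 3.26 FPKM in D1, 10.7 in D2 and 30.6 in D3, with ranges of 0.0241 to 762, 0.901 to 1453 and 3.10 to 5562 FPKM. In D1 40 members were below 1 FPKM. The other 110 (73.3%) reached it, near the 72.0% of the 20543 single-gene loci found in both blocks of the table. In D3, which the choice made high, 126 members reached 10 FPKM and 34 reached 100 FPKM. Over the 20543 loci the D3 median was 5.76 FPKM and the upper quartile 23.4 FPKM. Together the members made up 0.406% of all named FPKM in D1, 1.03% in D2 and 2.58% in D3. In the stages, the members found there made up 0.431% at floral initiation, 0.563% at booting, 1.09% at the milky stage and 0.711% at soft dough. In such bulk tissue a change in the cells that hold an RNA and a change in RNA per cell cannot be told apart.

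A few loci carried much of that sum. Sobic.003G397400 (chromosome 3, 70714984 to 70715693) was at 762 FPKM in D1, 1453 in D2 and 5562 in D3, which is 25.1%, 19.7% and 26.4% of the members' summed FPKM. Sobic.001G422100 (chromosome 1, 70284757 to 70287014) was second in D3, at 191, 453 and 1513 FPKM. Outside the pots the first of these was far lower, at 10.2 FPKM at floral initiation, 16.9 at booting, 94.8 at the milky stage and 427 at soft dough. It thus went up with age in the soil bed as well, and D1 already lay above its highest stage. Sobic.001G422100 was at 36.3, 79.0, 40.2 and 35.2 FPKM in those stages, with booting the highest. Coordinates are those of the file, with no genome build given in the sources used here.

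The largest sum of steps, 7.26, belonged to Sobic.002G324000 (chromosome 2, 69488428 to 69490758), at 1.798 FPKM in D1, 80.2 in D2 and 427 in D3. In the soil bed its highest value was 0.0360 FPKM, at soft dough. Second was Sobic.003G088400 (chromosome 3, 7689355 to 7690085), at 0.233, 5.22 and 128 FPKM, a sum of 6.70. In contrast to the first, this locus was well detected in watered plants, at 9.84 FPKM at floral initiation and 37.5 at booting, and lower at the milky stage (2.64) and soft dough (0.963). D1 lay below all 4 of these stage values and D3 above all of them.

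**Figure D1:**
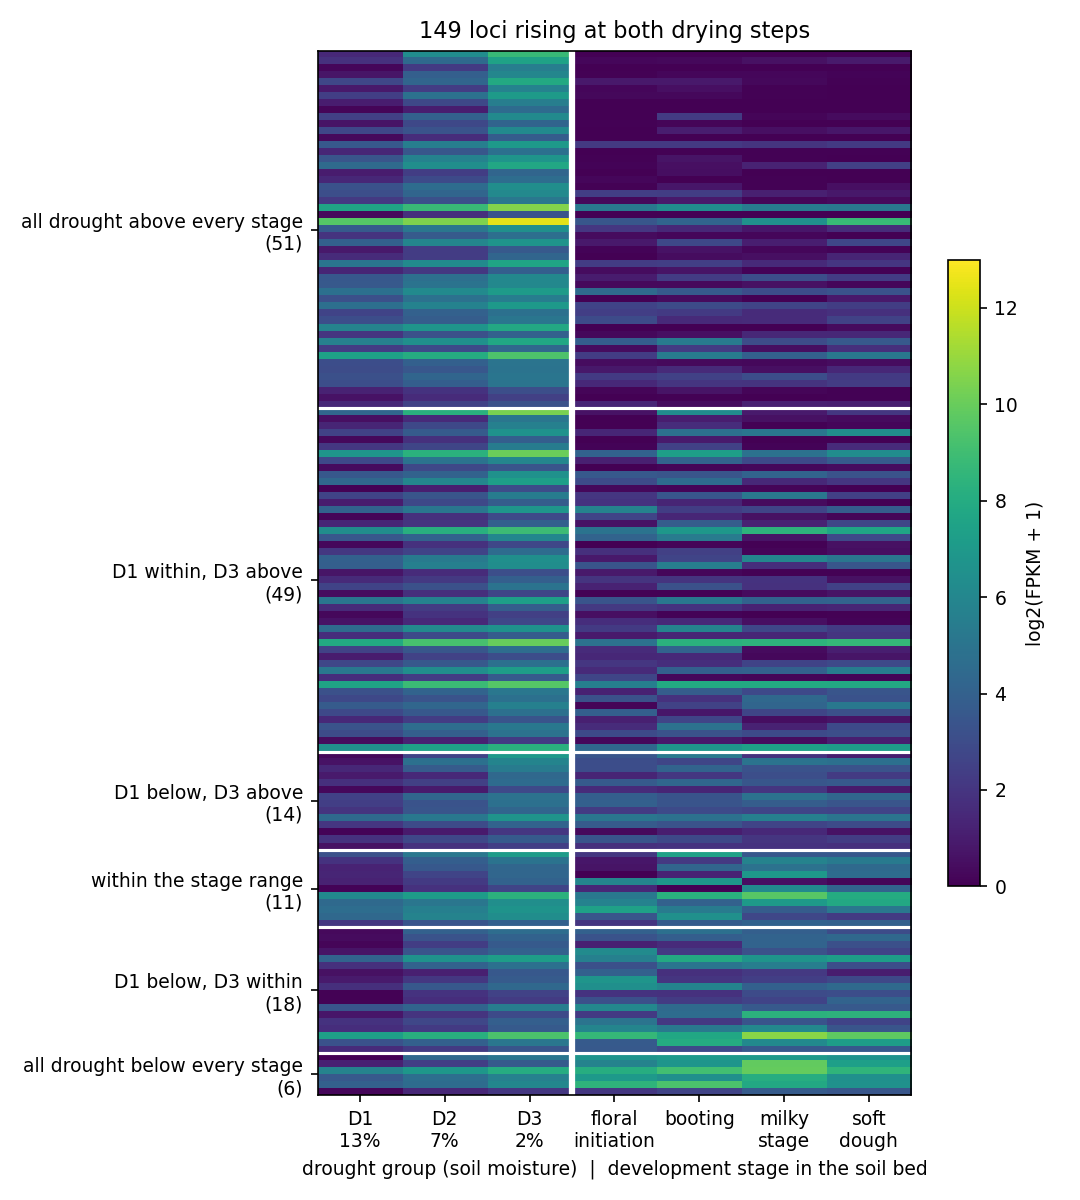
Level of each member found in both blocks of the table, as log2(FPKM + 1) by colour, in the 3 drought groups (left, by soil moisture) and the 4 stages of the soil bed (right). Members are grouped by where their drought values lie against the range of their stages, with the number in each group, and by falling sum of steps within it. Most loci of the top group of 51 are dark in the stages, where 27 stay below 1 FPKM, and each locus of the bottom group of 6 is brighter in every stage than in any drought group.

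The steps were of similar size over the whole set, with a median of 1.21 for step 1 (0.51 to 4.86) and 1.28 for step 2 (0.52 to 4.37). Over all 20898 loci the medians were 0.01 for each step, and 2.63% of them reached 1 in step 1, 3.53% in step 2 and 4.62% over both together. Step 1 was the larger in 64 members and step 2 in 86. Both steps reached 1 in 50 members, which are all the loci that did so (0.239% of 20898). The first step gave at least 2/3 of the sum in 27 members and the second in 34. Sobic.001G183401 (chromosome 1, 15585219 to 15588224) had the largest share in step 1, 86.2%, with 0.0241, 19.5 and 32.1 FPKM in D1, D2 and D3. Sobic.005G149700 (chromosome 5, 61853916 to 61856288) had the smallest share in step 1, 16.5%, with 0.927, 1.85 and 19.7 FPKM.

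**Figure D2:**
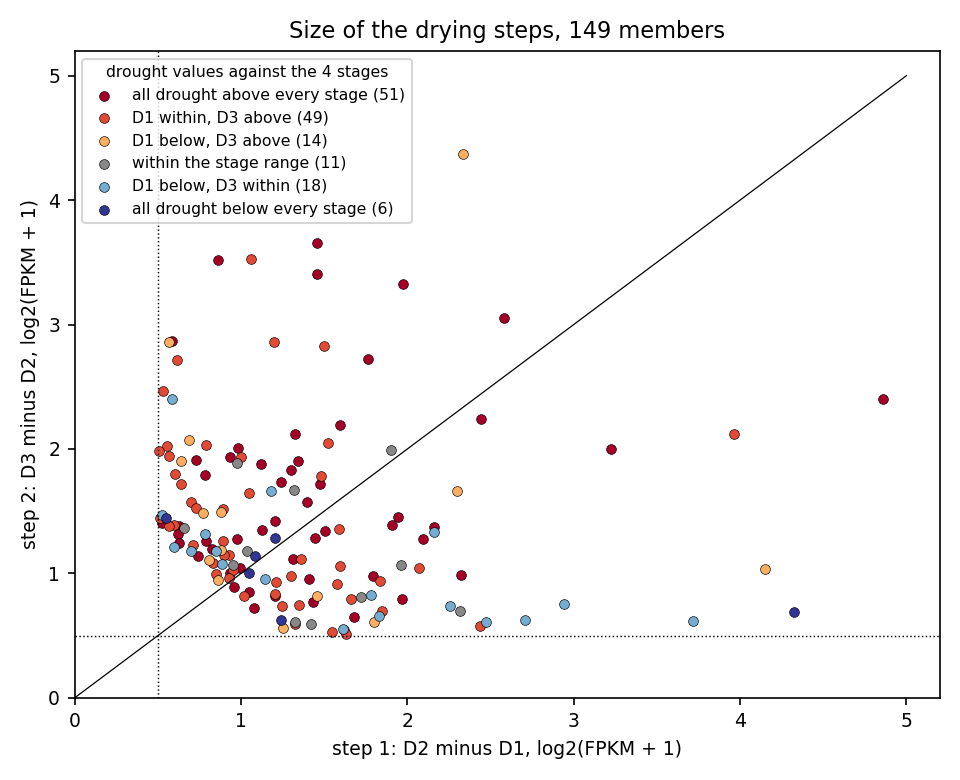
Step 1 (D2 minus D1) against step 2 (D3 minus D2) for the members found in both blocks of the table, both as differences of log2(FPKM + 1), coloured by where the drought values lie against the range of the 4 stages. Dotted lines mark the 0.5 that the choice required, and the diagonal marks equal steps. Points below the diagonal have the larger step 1, as 64 of all 150 members do.

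The stages of the soil bed were not used in choosing the members, so they show how the same loci behave in watered plants. Of the 150 members all but 1, Sobic.009G003300, occur in the stage block. There 121 have the same coordinates as in the drought block and 28 have others. A minimum of 1 FPKM in at least 1 stage was reached by 115. The other 34 (22.8%, against 19.3% of all 20543 single-gene loci found in both blocks) stayed below it in all 4 stages. Those 34 had a median of 1.05 FPKM in D1, 6.11 in D2 and 24.8 in D3, and 25 of them reached 10 FPKM in D3. Besides Sobic.002G324000, the highest of them in D3 was Sobic.004G115900 (chromosome 4, 12081741 to 12082719). Its coordinates differ between the blocks. It had 5.80, 17.7 and 234 FPKM in D1, D2 and D3, against 0.865 at floral initiation, 0.857 at booting, 0.208 at the milky stage and 0.0535 at soft dough. Sobic.009G142100 is listed at 0 in all 4 stages, and was at 0.256, 2.14 and 12.7 FPKM in the drought groups.

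Among the 115 members that reached 1 FPKM in a stage, more were higher than lower at booting relative to floral initiation. A difference of at least 1 was found upward in 46 (40.0%, against 15.6% of 16577 single-gene loci) and downward in 14 (12.2%, against 13.4%). Their median difference was 0.65, against 0.01 over all loci, and 76 of 115 were above 0. No test of this gap can be made with 1 value per group. The share of higher members stayed above that of all loci in each of 9 settings, the main one included, between 27.8% and 47.1%. These settings kept the members of the main choice or took all 262 loci that pass both steps. Members were not chosen anew under another offset or scaling, so the range does not cover a changed choice. Widest upward was Sobic.009G116700 (chromosome 9, 45915614 to 45916682), with 78.1 FPKM at booting against 0.572 FPKM at floral initiation, and next Sobic.002G055700 (chromosome 2, 5306079 to 5307672), at 173 and 3.28 FPKM. Widest downward were Sobic.004G283300 (chromosome 4, 62500936 to 62503486), with 3.01 FPKM at booting against 109 FPKM at floral initiation, and Sobic.006G205600 (chromosome 6, 55538297 to 55540028), at 3.64 and 74.96 FPKM.

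From booting to the milky stage members moved in both directions more often than all loci. Wide change between stages was not particular to members, though. The highest and lowest stage differed by at least 1 in 83.5% of the 115 and in 61.2% of all loci. The same held for 87.3% of 134 loci that were lower at both drying steps and reached 1 FPKM in a stage. Of these 134, 45.5% were lower by at least 1 at the milky stage than at booting and 5.97% were higher. Of the 115, 24 were higher by at least 1 at the milky stage (20.9%, against 9.05% of all loci) and 33 were lower (28.7%, against 15.3%), with a median of -0.09 against -0.03. Sobic.002G322200 had 74.1 FPKM at the milky stage against 0.0293 FPKM at booting, and 0.105, 2.64 and 5.39 FPKM in D1, D2 and D3, where its coordinates differ from those in the stage block. Sobic.009G076700 (chromosome 9, 10119117 to 10119960) had 121 FPKM at the milky stage against 1.46 FPKM at booting, and 1.503, 5.24 and 18.8 FPKM in the drought groups. In the other direction Sobic.003G217632 had 0.465 FPKM at the milky stage against 117 FPKM at booting, and Sobic.009G116700 at 0.944 and 78.1 FPKM.

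The last step differed less. At soft dough 18 members were higher than at the milky stage by at least 1 (15.7%, against 9.28%) and 14 lower (12.2%, against 8.19%), with a median of 0.06 against 0.03. Widest upward were Sobic.006G190500, at 6.38 FPKM at soft dough and 0.627 at the milky stage, and Sobic.003G397400. Widest downward were Sobic.002G282300, at 9.62 and 67.2 FPKM, and Sobic.003G275300, at 4.57 and 34.2 FPKM. Against booting, soft dough had 21 members higher (18.3%, against 7.96%) and 31 lower (26.96%, against 12.5%).

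Over the whole development series, soft dough against floral initiation, 43 members were higher by at least 1 (37.4%, against 13.6%) and 24 lower (20.9%, against 16.6%). The median was 0.30, against 0.03 over all loci. The widest rise was that of Sobic.005G186100 (chromosome 5, 67076368 to 67078233), at 343 FPKM at soft dough and 3.65 at floral initiation. Its drought values, 0.750, 2.87 and 6.52 FPKM, lay below its lowest stage in D1 and D2 and between its floral initiation and booting values in D3. In 10 members the value was higher at every stage than at the one before, with at least 1 in total (8.70%, against 3.004% of all loci), and in 5 it was lower at every stage (4.35%, against 4.09%). Besides Sobic.003G397400, the 10 include Sobic.001G439700, at 28.4, 320, 343 and 396 FPKM from floral initiation to soft dough and 233, 595 and 998 FPKM from D1 to D3.

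**Figure D3:**
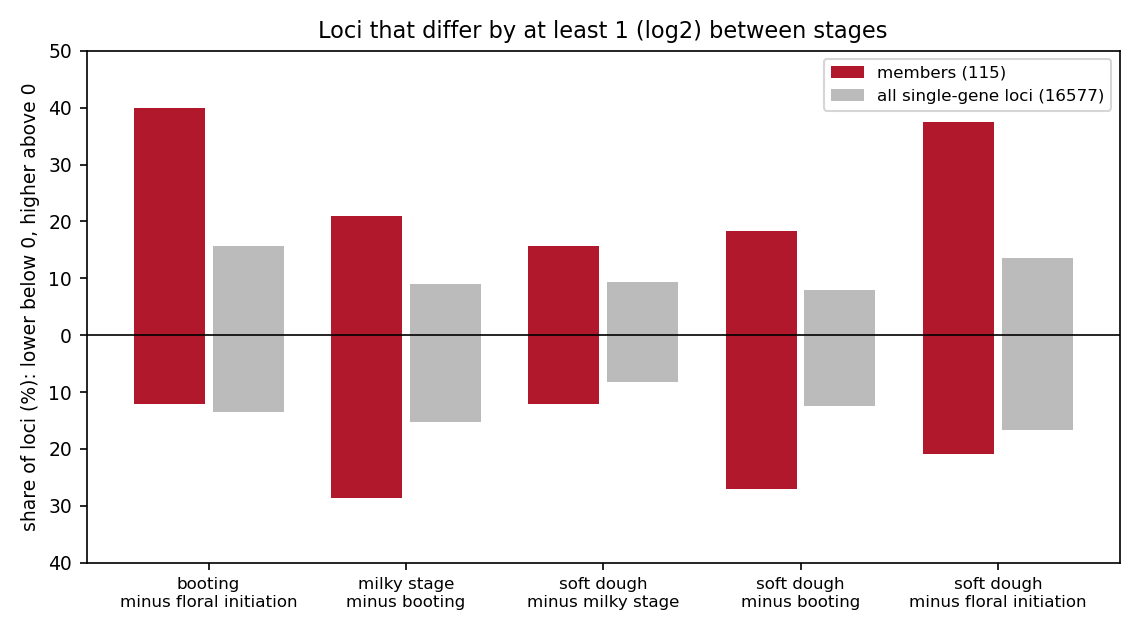
Share of loci that differ by at least 1 in log2(FPKM + 1) between 2 stages, higher above the zero line and lower below it, for the 115 members that reach 1 FPKM in a stage and for all 16577 such single-gene loci. The widest gaps are 40.0% against 15.6% for booting and 37.4% against 13.6% for soft dough, each relative to floral initiation. Lower members at booting, 12.2%, lie near the 13.4% of all loci.

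Booting was the stage in which members were most often highest. It held the highest of the 4 values in 42 of 115 members (36.5%, against 22.1% of all loci). Floral initiation held it in 24 (20.9%, against 31.1%), the milky stage in 32 (27.8%, against 25.6%) and soft dough in 17 (14.8%, against 21.2%). A value at least 1 above all 3 other stages was found at booting in 17 members (14.8%, against 3.34%), at floral initiation in 9 (7.83%, against 7.54%), at the milky stage in 7 (6.09%, against 2.53%) and at soft dough in 4 (3.48%, against 0.899%). In the 134 loci lower at both drying steps these shares were 8.96% at booting, 19.4% at floral initiation, 1.49% at the milky stage and 3.73% at soft dough. A value at least 1 below all 3 others was found at floral initiation in 21 members (18.3%, against 5.89%), at booting in 4 (3.48%, against 1.10%), at the milky stage in 3 (2.61%, against 3.54%) and at soft dough in 3 (2.61%, against 1.21%). For the milky stage the share of members highest there fell below that of all loci in 3 of 7 settings, so no order relative to all loci can be read from it.

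The drought plants, too, were harvested at booting, though in pots. The 17 members that stood apart at booting had there a median of 37.5 FPKM, and their highest other stage had a median of 6.72 FPKM. In the drought groups their medians were 10.5 FPKM in D1, 34.2 in D2 and 82.8 in D3. For 15 of the 17 D1 was below booting, for 8 D2 still was, and for 15 D3 was above it. Over all loci D1 was below booting in 47.0%, D2 in 46.8% and D3 in 46.5%. Since the 17 were picked for a high booting value and the choice orders D1 and D3, their counts are a description only. The widest margins were those of Sobic.009G116700 and Sobic.002G055700. Sobic.009G116700 was at 18.8, 308 and 1342 FPKM in D1, D2 and D3, and so passed its booting level of 78.1 FPKM between D1 and D2, while the other stages had 0.572 to 3.34 FPKM. Sobic.002G055700 was at 8.43, 34.2 and 139 FPKM, which stayed under its 173 FPKM at booting, and its other stages had 3.28 to 11.2 FPKM. Pot and drought cannot be told apart when drought groups are set against the soil bed, and the table lists both kinds in separate blocks with their own locus numbering.

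**Figure D4:**
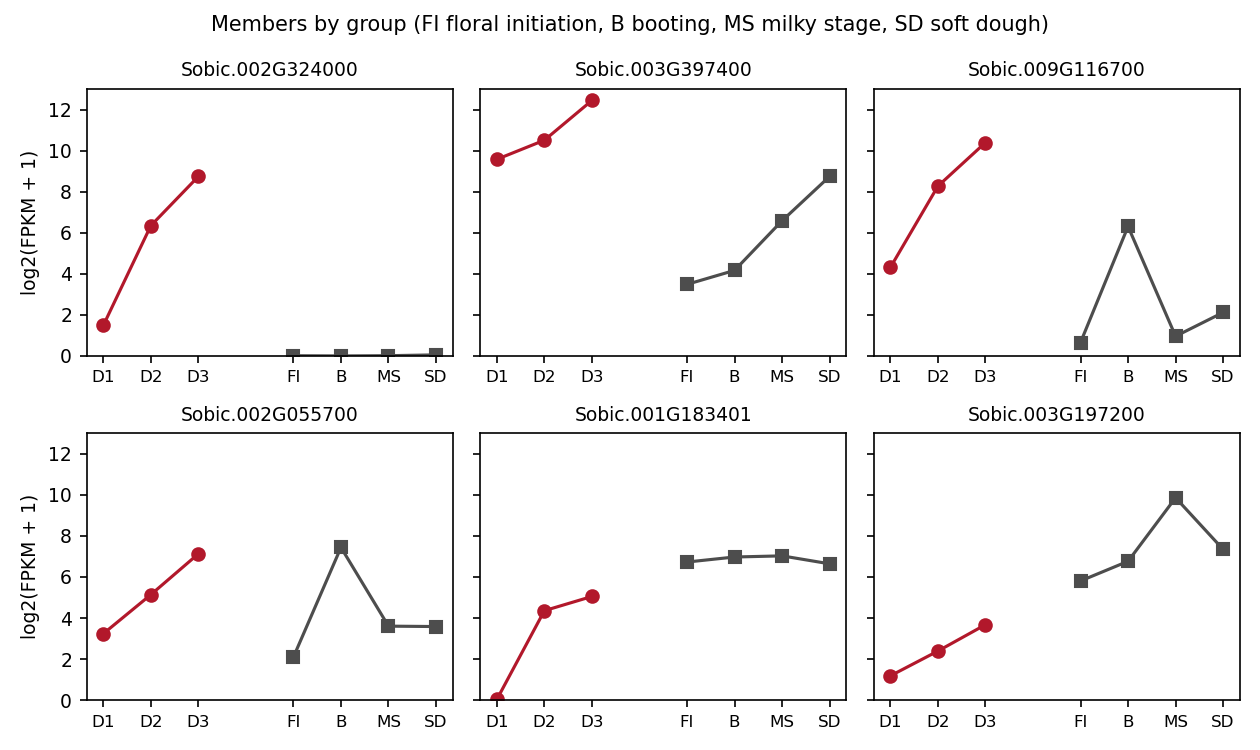
Levels of 6 members as log2(FPKM + 1) in D1, D2 and D3 (circles) and in the 4 stages (squares), 1 value per group. Sobic.002G324000 does not pass 0.0360 FPKM in any stage, Sobic.003G397400 goes up with drying and with age, Sobic.009G116700 and Sobic.002G055700 stand out at booting, and Sobic.001G183401 and Sobic.003G197200 lie below every stage in each drought group.

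Set against the range of their own 4 stages, the members fell into 6 groups. Since the choice makes D1 the lowest and D3 the highest drought value of each member, the shares are partly given by the choice. D1, and with it all drought values, lay above every stage in 51 members (34.2%, against 26.7% of 20543 loci for D1), 27 of them among the 34 below 1 FPKM in all stages. The lowest drought value lay within the stage range and the highest above it in 49 (32.9%, against 18.7%), and the lowest below and the highest above it in 14 (9.40%, against 1.91%). For all loci these last shares take the lowest and highest drought value in whatever group they fall. Together, D3 was above every stage in 114 members (76.5%, against 28.9% of all loci). The mirror set, the 150 loci with the lowest sums among those lower at both drying steps, has 144 loci in the stage block. Among these D1, their highest drought value, was above every stage in 64 (44.4%, against 26.7% of all loci).

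In the remaining 35 members D3 did not lie above every stage of the watered plants. All values were within the stage range in 11 members (7.38%, against 35.3% of all loci). Among them is Sobic.008G032000 (chromosome 8, 2865528 to 2868780), at 2.78, 13.7 and 29.8 FPKM in D1, D2 and D3 and between 0.712 and 54.4 FPKM in the stages. In 18 members (12.1%, against 15.9% for the lowest and highest value of all loci) D1 was below every stage and D3 within the range. Sobic.004G171800 (chromosome 4, 52429115 to 52431146) is an example, with 0.259, 15.6 and 24.4 FPKM in the drought groups and 15.6, 26.7, 14.2 and 7.19 FPKM from floral initiation to soft dough. In 6 members (4.03%) even D3 was below every stage, as in 20.4% of all loci. Sobic.001G183401 was at 0.0241, 19.5 and 32.1 FPKM in D1, D2 and D3, against 98.8 to 130 FPKM in the stages. Sobic.003G197200 (chromosome 3, 52245549 to 52247003) was at 1.27, 4.25 and 11.8 FPKM, against 55.0 to 927 FPKM.

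**Figure D5:**
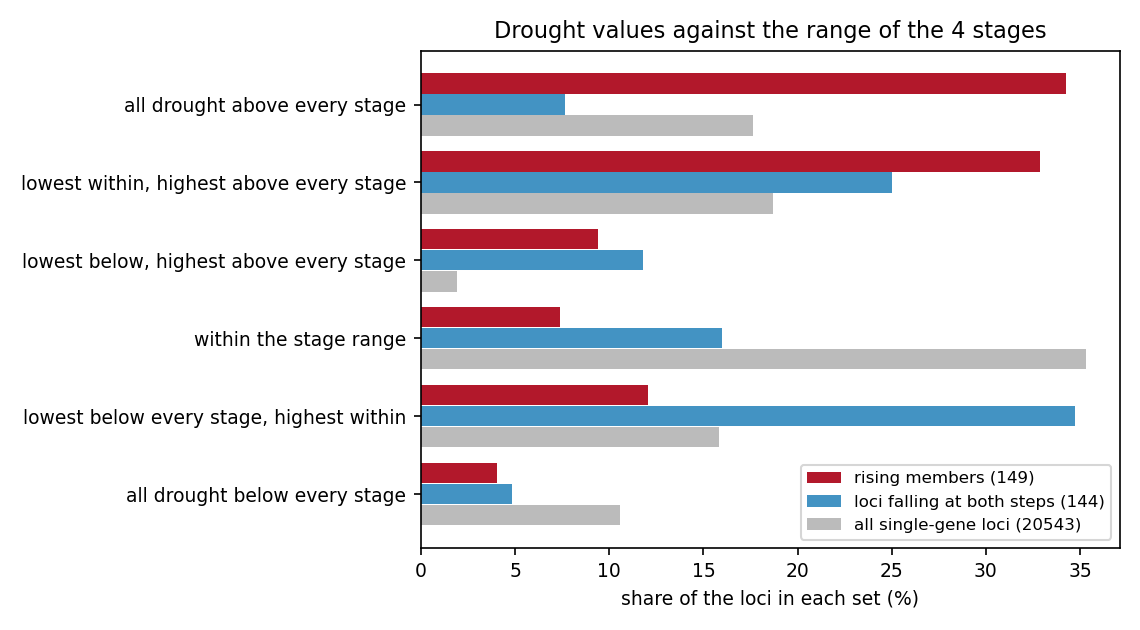
Share of loci in 6 groups by where their 3 drought values lie against the range of their 4 stages, for the members, the 144 loci lower at both drying steps and all 20543 single-gene loci. The choice orders the drought values of the first 2 sets but not of all loci, so the bars are not alike in this. Where all 3 drought values lie above every stage, the bars are 34.2% of members and 17.6% of all loci. Where all 3 lie below every stage, they are 4.03% and 10.6%. For all loci, D1 alone was above every stage in 26.7% and D3 alone below every stage in 20.4%, which the bars do not show.

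D1 was below every stage in 38 members in all (25.5%, against 18.6% of all loci). The choice makes D1 the lowest drought value of each member, so this share is partly given by it. Among the 144 loci lower at both drying steps, where D1 is the highest, it was 4.86%. The 38 had a median of 1.88 FPKM in D1, 7.87 in D2 and 18.7 in D3, while their lowest stage had a median of 6.73 FPKM. Step 1 gave at least 2/3 of the sum in 12 of these 38 and in 15 of the other 111 members. Step 2 did so in 7 of the 38 and in 27 of the 111. The 38 were split off by a low D1, and D1 enters step 1, so these counts are a description only. D3, which the choice made high, was above booting in 25 of the 38 and in 108 of the 111, while over all loci it was below booting in 46.5%. The split also puts D1 below booting in the 38, so this contrast follows in part from it. Members thus differ in whether D1, the least dry group, lay above, within or below the range of the watered stages.

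The members lay on all 10 chromosomes, with 29 on chromosome 1 (19.3%, against 18.1% of the 20898 loci) and 4 on chromosome 7 (2.67%, against 6.64%). Their loci were shorter than others, with a median span of 2576 bases against 4067. Another member was within 100000 bases of 15 members (10%), much as for loci that are not members (9.01%), and within 20000 bases of 8 (5.33%, against 2.05%). The largest such group was of 3 loci on chromosome 5 (1454990 to 1504737). There Sobic.005G016400 was at 0.271, 2.35 and 8.95 FPKM in D1, D2 and D3, Sobic.005G016500 at 0.852, 4.04 and 11.3 FPKM and Sobic.005G016900 at 112, 315 and 1086 FPKM. In the stages the first 2 did not pass 0.542 FPKM, while Sobic.005G016900 was at 162 FPKM at booting and 16.0 to 78.3 FPKM otherwise, under other coordinates than in the drought block. Sobic.003G159400 and Sobic.003G159450, both among the 8, have the same coordinates (chromosome 3, 18331117 to 18336002). Fragments of them may not be separable, so the 8 may count 1 signal under both names.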

How the data were processed

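The authors deposited FPKM, 1 value per locus and group, in 2 blocks, stages and drought, that per the file headers each have their own locus numbering. No source used here says how libraries were merged into a group value or whether the blocks were quantified together. The submitters' processing notes list HISAT2 2.0.5, Bowtie2 2.2.9, cutadapt 1.8.1 and Cuffdiff, with no order. The file does not say whether a start counts from 0 or 1.

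Groups came from the labelled stage or condition. Repeated drought entries were used once, leaving 32705, of which 1209 join several genes and were not members. Differences are of log2(FPKM + 1), which understates changes of low loci. With no value per library no test was made, 0 columns belong to other samples, and the limma fit planned for values per library, the motif search and product-name lists were not run. Loci were named as the 2 most extreme per comparison and direction, with others added after their values were seen (near neighbours, loci listed at 0 or absent, and the examples Sobic.001G439700, Sobic.003G197200, Sobic.004G115900 and Sobic.008G032000). Members and rules were chosen with earlier results of these data known. The code for choosing and counting was checked on copies of the D1 values with known steps put in. That check holds no noise, so it does not show how often noise would pass both steps. Alternatives were offsets of 0.1 and 5, other minimums, 2 scalings and loci with equal coordinates. Python 3.11.15 and pandas 2.3.3 were used.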

Additional observations from a re-analysis of the deposited data

Results flagged for a closer look

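Some loci outside the choice showed the same course. Of 1168 loci that join several genes and are above 0 in D1, D2 and D3, 15 had both steps at 0.5 or more. That share is near the 1.25% of single-gene loci. Of these 15, 8 had a sum as large as that of the members. The locus that joins Sobic.001G164100 and Sobic.001G164200 was at 46.5, 101 and 383 FPKM in D1, D2 and D3, and at 45.3, 170, 21.6 and 35.0 FPKM from floral initiation to soft dough. Its values cannot be split between the genes.

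Among 9147 single-gene loci listed at 0 in D1, a further 9 had both steps at 0.5 or more. That share is below the 1.25% of single-gene loci above 0 in D1, D2 and D3. The highest of the 9 in D3 was Sobic.010G045500, listed at 0 in D1 and at 8.001 FPKM in D2 and 20.2 in D3. It was at 3.42 FPKM at floral initiation, 3.35 at booting and 3.201 at soft dough, and is listed at 0 at the milky stage. No fold is given for these loci.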

How the results depend on the processing

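The choice of members depended most on the offset. With an offset of 0.1 in place of 1, 480 loci passed both steps and 90 of the 150 members were kept. With an offset of 5, 139 passed and 96 were kept. Of 201 recomputed values 177 stayed within 1.5 times (shares and counts) or 0.1 (medians), and the cause of the others was not tested. Stage values were recomputed for the members of the main choice or for all loci that pass both steps. They were not recomputed for members chosen under another offset or scaling. The median of booting minus floral initiation was 0.82 at an offset of 0.1, 0.28 at an offset of 5, 0.40 without a minimum, 0.92 with a minimum of 5 FPKM and 0.54 for equal coordinates. For the milky stage minus booting it was 0.10 with that minimum, 0.11 with quantile normalization, -0.27 for equal coordinates and 0.012 over all loci that pass both steps, a set added after the data were seen. So its sign is not settled. Nor is that of soft dough minus the milky stage, which was -0.019 with that minimum and -0.024 over that added set. For soft dough minus booting it was -0.15 with quantile normalization. For soft dough minus floral initiation it was 0.083 at an offset of 5 and 0.039 without a minimum.

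At an offset of 5 the share of lower members was 17.4% at the milky stage and 16.5% at soft dough, each against booting, and 12.2% at soft dough against floral initiation. The share of higher members was 8.70% at soft dough against the milky stage and 23.5% against floral initiation. At an offset of 0.1, 20.0% were lower at soft dough than at the milky stage. Members standing apart at soft dough made up 6.09% at an offset of 0.1 and 2.17% for equal coordinates. Shares fell on the other side of that of all loci under some setting for lower members at booting against floral initiation, for members highest at the milky stage and for members apart at floral initiation. No paired analysis was possible because each group has a single value in the file, and no replicate could be left out for the same reason. The motif windows were not run.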

Other observations

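The members Sobic.001G183401, Sobic.001G186300 and Sobic.001G186600 lie within 811646 bases of chromosome 1, none within 100000 bases of another, and were all under 1 FPKM in D1. They were at 0.0241, 0.301 and 0.0666 FPKM in D1, at 19.5, 9.01 and 2.26 in D2 and at 32.1, 15.9 and 3.77 in D3. Their lowest stages had 98.8, 8.85 and 3.71 FPKM. The stretch between them (15585219 to 16396864) was picked out after these values were seen. It holds 33 named loci of the drought table, of which 7 reach 1 FPKM in every stage. In all 7 D1 was below every stage, against 18.6% of the 20543 single-gene loci above 0 in D1, D2 and D3. The sets are unlike, since the 20543 need not reach 1 FPKM in a stage. Sobic.001G184650, among the 7, is listed at 0 in D1 and so lies outside them. In 5 of the 7 D1 was below every stage by at least 1 on the log2 scale, against 3.29% of 12965 loci compared. These 5 include the 3 members, whose low D1 led to the stretch, so the count is a description only. Sobic.001G184650 is listed at 0 in D1 and was at 4.05 and 9.54 FPKM in D2 and D3, against 4.32 to 9.61 FPKM in the stages. The locus that joins Sobic.001G186401 and Sobic.001G186500 was at 0.994, 8.93 and 19.9 FPKM. A neighbour in the same stretch, Sobic.001G186100, was at 63.2, 55.7 and 60.8 FPKM in D1, D2 and D3, against 64.1 to 105 FPKM in the stages.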
